A study of Oryza sativa with 6 samples.

Results

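Genes that move iron and zinc were followed in rice leaves under drought: nicotianamine synthases (NAS), yellow stripe-like transporters (YSL), the iron transporter IRT1, zinc and iron transporters of the ZIP family, and metal transporters of the NRAMP family. A probe was a member if it was annotated to 1 gene and a synonym of that gene in the gene table was one of these family names followed by a number, with or without the prefix Os. The rule used names and no measured values, but the members were chosen with earlier results of these data known. It found 32 probes of 28 genes, out of 15798 genes with a single-gene probe among the 22575 spots of the array. These were 3 NAS probes, 14 YSL probes of 13 genes, 1 IRT probe, 5 ZIP probes and 9 NRAMP probes of 6 genes. A further 11 genes with such names, among them IRT2, YSL2 and OsZIP9, had no single-gene probe and are not analysed here.

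Grasses take up ferric iron from soil by secreting phytosiderophores of the mugineic acid family, which are made from nicotianamine. Nicotianamine, joined from S-adenosylmethionine by NAS enzymes, also binds iron, zinc, copper and manganese inside the plant. YSL proteins carry such metal chelates across membranes, ZIP and IRT proteins import divalent zinc and iron, and NRAMP proteins import divalent metals such as manganese and iron. In leaves these genes are known for loading and unloading metals at the veins and for moving them out of ageing tissue.

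The 6 arrays compared drought-stressed with well-watered leaves within 1 genotype each, 3 for Apo (drought tolerant in the labels) and 3 for IR64 (susceptible). Water was withheld in the greenhouse from day 33 after sowing, and stressed leaves were harvested 5 days later according to the samples' labels, or 6 days according to the design text of the series. Well-watered leaves were harvested on day 37. Control RNA of each genotype carried Cy5 and stressed RNA Cy3 on every array, with no dye swap. The labels do not say whether replicates are separate plants, so p-values reflect only how far these samples spread, and that spread may be technical.

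Which RNA forms the numerator of the deposited log ratios is not given in the sources used here. Agilent's own convention of Cy5 over Cy3 would place control leaves in the numerator, whereas RAB16C, a dehydrin gene known in rice to be induced by water deficit, was positive on all 6 arrays, from 1.2 to 1.84. Ratios are therefore called positive or negative, where positive is the sign of RAB16C. They are taken as log10, the base this software writes, so that 0.30 would be about a 2-fold difference. A ratio holds no level, so neither the leaf identity of the samples nor the distance of a probe from background could be checked. In whole leaves, fewer cells of a type and less RNA per cell cannot be told apart.

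The IR64 replicate 1 array stood apart. Its correlation across all tested probes was 0.832 to 0.894 with Apo arrays but 0.755 and 0.767 with the other IR64 arrays, whose own correlation was 0.938. Member differences between genotypes that passed the threshold with or without it are given both ways below. The spread of ratios was also wider in Apo, with a standard deviation over probes of 0.318 to 0.358 per array, against 0.268 to 0.318 in IR64.

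In Apo, 19 of the 32 probes differed from 0 past the limma threshold (adjusted p under 0.05), 9 positive and 10 negative. Of all 17727 tested probes 50.1% did so, 24.5% positive and 25.6% negative. In IR64, 21 of the 32 passed, 10 positive and 11 negative, where 43% of all probes did, 22.7% positive and 20.2% negative. In both genotypes 14 member probes passed with the same sign, as did 30.8% of all probes, and 1, NAS1, with opposite signs, as did 0.558%. The median absolute ratio of the members was 0.146 in Apo and 0.261 in IR64, beside 0.141 and 0.121 over all tested probes. The members did not lean to one side as a group, since their medians were 0.0196 and 0.00189, against -0.00318 and 0 over all probes. The mean ratios farthest from 0 in Apo were those of OsZIP4, on the positive side, and NAS3, IRT1 and YSL16, on the negative side.

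**Figure D1:**
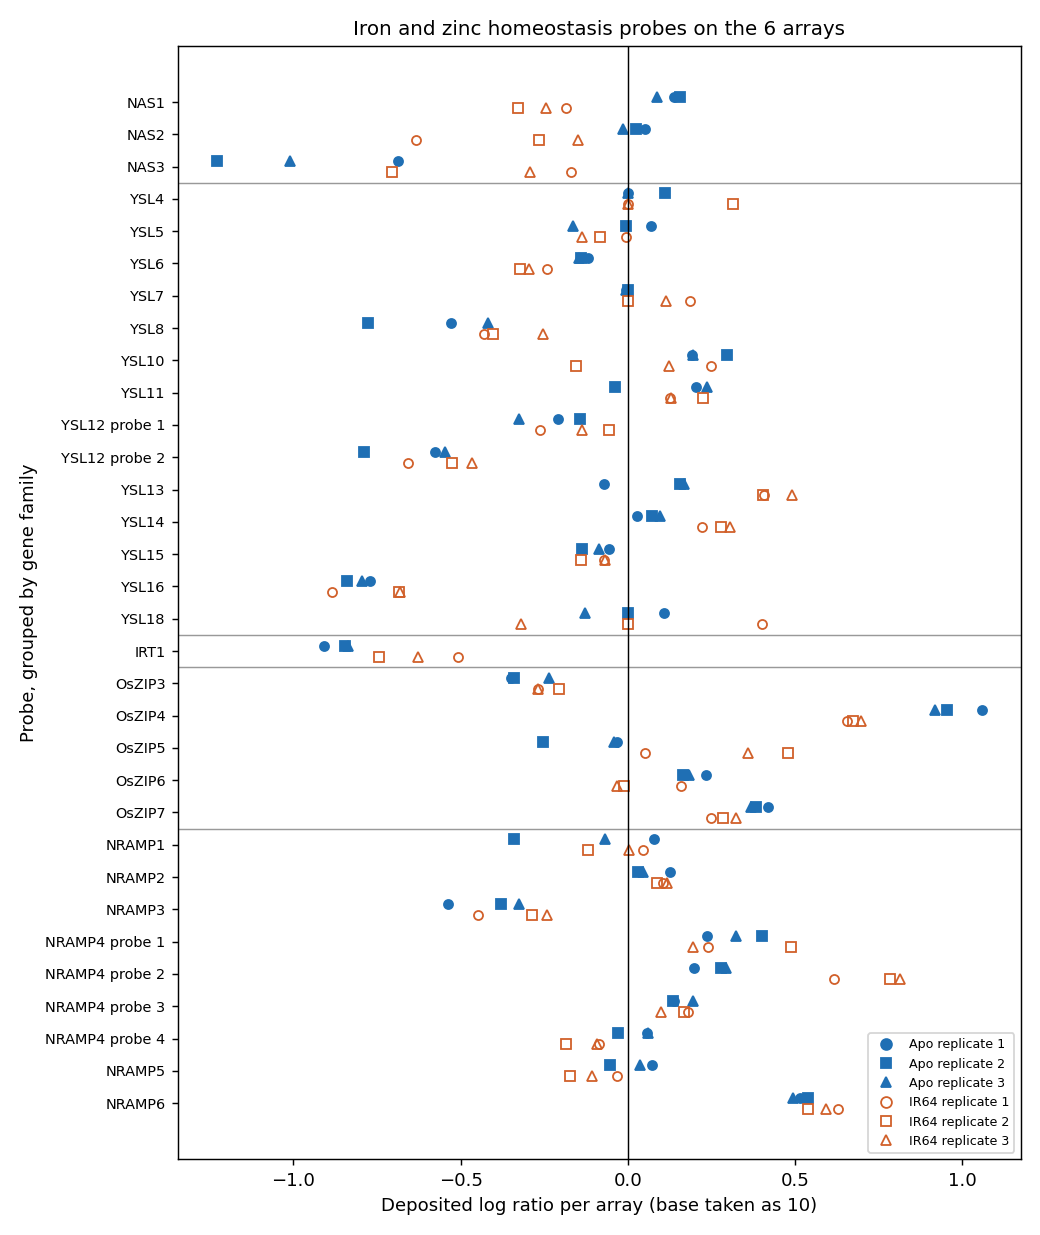
Deposited log ratio (x axis, base taken as 10) of each of the 32 probes (y axis, grouped by family) on the 6 arrays, Apo filled and IR64 open, with a symbol for each replicate. OsZIP4 lies between 0.655 and 1.06 and is farthest right on the Apo arrays, while IRT1 and YSL16 lie at -0.507 or lower on every array.

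The 3 nicotianamine synthase genes were all negative past the threshold in IR64, whereas in Apo 1 was positive, 1 negative and 1 did not pass. Of all tested probes, 20.2% were negative in IR64, while 24.5% were positive and 25.6% negative in Apo. NAS1 (LOC4332608), known in rice as an iron-deficiency-induced synthase, stood at 0.137, 0.155 and 0.0885 on the Apo arrays and at -0.186, -0.328 and -0.246 on the IR64 arrays. All Apo values were positive and all IR64 values negative. The means were 0.127 ± 0.0343 (SD, n = 3) in Apo and -0.254 ± 0.0714 in IR64, with limma adjusted p = 0.0262 and 0.00206. The Apo call was lost when any 1 Apo array was left out, with adjusted p from 0.0671 to 0.116, while the IR64 call was kept without any 1 array.

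NAS2 (LOC4332607) is the direct neighbour of NAS1 in the genome, with no protein-coding gene between them. Its Apo values of 0.0508, 0.0253 and -0.0131 lay near 0, whereas its IR64 values of -0.633, -0.266 and -0.149 were all negative. The genotypes did not overlap, which held for 34.5% of all tested probes, and the difference did not pass with all arrays (adjusted p = 0.124). The IR64 mean of -0.349 ± 0.253 passed the threshold (adjusted p = 0.0176), but not without IR64 replicate 2 (0.0525) or with each genotype fitted alone (0.085), whereas the Apo mean of 0.021 ± 0.0321 did not (0.856). Without IR64 replicate 1 the IR64 mean shrank to -0.208 and still passed (0.00926). Probe sequences were not used here, so whether the NAS1 and NAS2 probes also read the other gene is unknown.

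NAS3 (LOC4344361), which in rice leaves is known to be lowered by iron deficiency rather than raised, was negative on all arrays. It stood at -0.688, -1.23 and -1.01 in Apo, against -0.171, -0.705 and -0.293 in IR64. The genotypes overlapped, because IR64 replicate 2 lay below Apo replicate 1. The Apo mean of -0.974 ± 0.272 had an adjusted p = 0.00108 and would be a 9.43-fold difference in base 10. The IR64 mean of -0.39 ± 0.28 passed narrowly (0.0477), and not without IR64 replicate 2 (-0.232, adjusted p = 0.226), IR64 replicate 3 (-0.438, 0.107) or Apo replicate 3 (0.0778).

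Among the YSL transporters, 6 of 14 probes were negative and 1 positive in Apo, and 4 were negative and 2 positive in IR64. Of all tested probes, 25.6% were negative and 24.5% positive in Apo, and 20.2% and 22.7% in IR64. YSL16 (LOC4336546), known in rice as a carrier of copper and iron nicotianamine in the phloem, had the largest YSL ratio. It stood at -0.771, -0.841 and -0.795 in Apo, against -0.886, -0.683 and -0.68 in IR64. All 6 values lay within a narrow band, and the means of -0.802 ± 0.0356 and -0.75 ± 0.118 had adjusted p = 4.68e-05 and 8.35e-05. The difference between genotypes did not pass, with a 95% interval from -0.213 to 0.108, and its sign depended on how the arrays were scaled.

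YSL8 was the next most negative of the genes with 1 probe, at -0.528, -0.777 and -0.419 in Apo, against -0.429, -0.402 and -0.254 in IR64. Both means passed, -0.574 ± 0.184 and -0.362 ± 0.0942, and the genotypes overlapped. YSL7, its direct neighbour in the genome, did not pass in either genotype, except in IR64 without IR64 replicate 2 (0.149, adjusted p = 0.0361), and 2 of its 6 values were exactly 0. YSL6, known in rice for manganese tolerance, had small ratios of low spread, at -0.135 ± 0.0136 in Apo and -0.286 ± 0.0411 in IR64, both past the threshold (in Apo not without Apo replicate 3, adjusted p = 0.0616). Its direct neighbour YSL5 passed in neither genotype, at -0.033 ± 0.119 and -0.0746 ± 0.0662.

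YSL11, YSL12 and YSL13 follow one another in the genome with no protein-coding gene between neighbours. The YSL12 probes were negative in both genotypes, at -0.226 ± 0.0925 and -0.638 ± 0.131 in Apo and -0.152 ± 0.105 and -0.55 ± 0.0986 in IR64. The first of them missed the threshold in IR64 (adjusted p = 0.0545), but not once the replicate number entered as a block (0.0436), and it lost the Apo call without Apo replicate 3 (0.0696). YSL13, known in rice for distributing iron to leaves, lay on the other side. It stood at -0.0712, 0.155 and 0.169 in Apo, against 0.408, 0.404 and 0.491 in IR64, without overlap, as held for 34.5% of all tested probes. The difference did not pass with all arrays (adjusted p = 0.0653). The mean passed in IR64 (0.434 ± 0.0491, adjusted p = 0.00106) and in Apo (0.0842 ± 0.135, 0.228) passed only when Apo replicate 1 was left out (0.162, 0.0251). YSL11 passed in neither, at 0.134 ± 0.15 and 0.161 ± 0.056, but in both without Apo replicate 2 (adjusted p = 0.0127 and 0.017).

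YSL14 showed the same arrangement as YSL13, with 0.0284, 0.0737 and 0.0955 in Apo below 0.221, 0.278 and 0.306 in IR64. Its mean passed in IR64 (0.268 ± 0.0434, adjusted p = 0.000924) and not in Apo (0.0659 ± 0.0342, 0.127). The difference did not pass with all arrays (adjusted p = 0.0692). YSL15, the carrier by which rice roots take up ferric phytosiderophore, had nearly equal small means, -0.0931 ± 0.0406 and -0.0932 ± 0.0403. They fell on either side of the threshold, with adjusted p = 0.0481 in Apo and 0.0543 in IR64, and the IR64 mean passed under the replicate block (0.0358). The Apo call was lost without any 1 Apo array, IR64 replicate 2 or IR64 replicate 3 (0.058 to 0.205). YSL10 was positive in Apo, at 0.228 ± 0.0587 (adjusted p = 0.0394), but not with the block (0.0681) or without any 1 Apo array or IR64 replicate 3 (0.064 to 0.162). In IR64 it passed only without IR64 replicate 2 (0.186, adjusted p = 0.0457). YSL4 and YSL18 passed in neither genotype and had 4 and 2 values of exactly 0, so they carry little information.

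The ferrous iron transporter IRT1 (LOC4333669), best known from iron uptake in roots, was negative on all 6 arrays. It stood at -0.91, -0.847 and -0.836 in Apo, against -0.507, -0.744 and -0.629 in IR64. Every Apo value lay below every IR64 value, where 34.5% of all tested probes had no overlap in either direction. The difference between genotypes did not pass with all arrays (adjusted p = 0.103). The means of -0.864 ± 0.04 and -0.627 ± 0.119 passed with adjusted p = 3.82e-05 and 0.000172.

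Among the zinc transporters, OsZIP4 (LOC4344937), known in rice as a zinc-deficiency-induced transporter of roots and shoots, had the highest ratio of all members in Apo. It stood at 1.06, 0.955 and 0.918 in Apo, against 0.655, 0.675 and 0.698 in IR64, again without overlap, as held for 34.5% of all tested probes. The means were 0.976 ± 0.071 and 0.676 ± 0.0213, with adjusted p = 1.17e-05 and 4.34e-05. In base 10 these would be 9.47-fold and 4.74-fold differences.

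OsZIP7 (LOC4338051), known in rice for sending zinc towards upper tissues, was also positive on all arrays. It stood at 0.42, 0.382 and 0.369 in Apo, against 0.249, 0.286 and 0.325 in IR64. The gene table also lists it as OsZIP3, a name it shares with the next gene. OsZIP3 (LOC4336971), known in rice for unloading zinc from the xylem at stem nodes, had the opposite sign, with values from -0.349 to -0.236 in Apo and from -0.268 to -0.205 in IR64. All 4 of these means passed the threshold.

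OsZIP5 (LOC4339082), known in rice as a zinc importer, was negative on every Apo array, at -0.0333, -0.254 and -0.0416, and positive on every IR64 array, at 0.0526, 0.478 and 0.358. IR64 replicate 1 was the value nearest to Apo. Only the IR64 mean passed (0.296 ± 0.219, adjusted p = 0.0306), and not under the replicate block (0.0626) or without any 1 array other than Apo replicate 2 and IR64 replicate 1 (0.0518 to 0.158). The Apo mean was -0.11 ± 0.125 (0.322). OsZIP6, a metal transporter of the same family, was positive in Apo, at 0.194 ± 0.0355 (adjusted p = 0.0107), although not without Apo replicate 1 (0.0625). In IR64 it stood at 0.159, -0.0103 and -0.0317, not past the threshold.

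**Figure D2:**
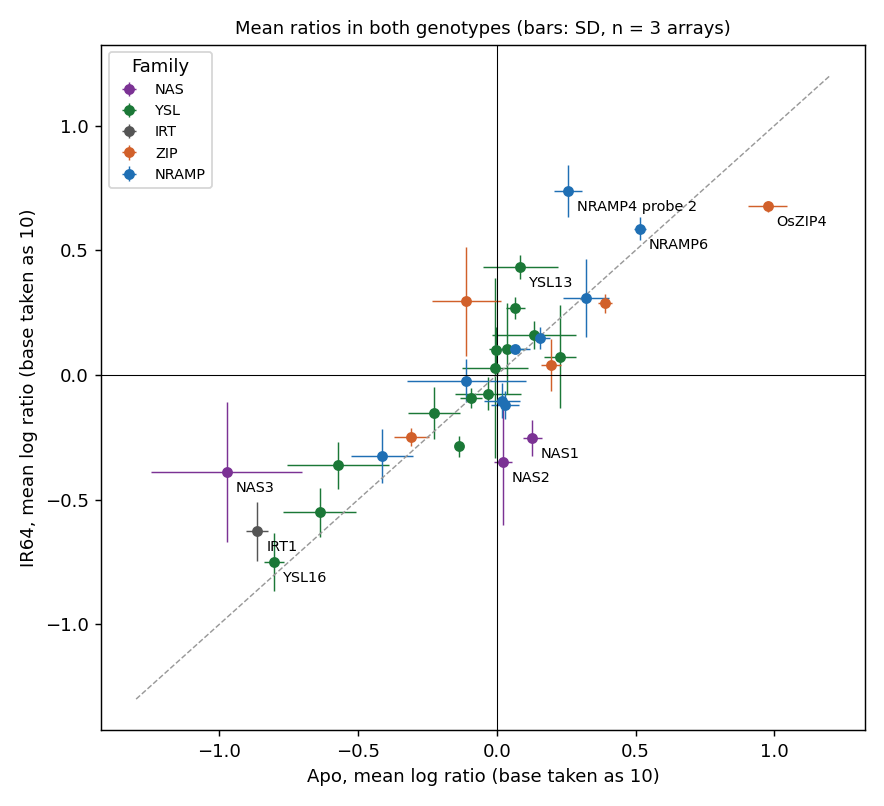
Mean log ratio of each probe in Apo (x axis) and in IR64 (y axis), both with the base taken as 10, coloured by family, with bars for the SD over 3 arrays and a dashed line of equality. Most probes lie along the line, while NAS1 lies in the lower right quadrant at 0.127 and -0.254 and NRAMP4 probe 2 lies above the line at 0.256 and 0.738.

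Over the 32 probes the Apo and IR64 means correlated at r = 0.84, close to r = 0.829 over all tested probes. These are correlations across probes of the same arrays and genes are not independent replicates.

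Of the 9 NRAMP probes, 4 were positive and 1 negative in Apo, and 5 were positive and 2 negative in IR64. Over all tested probes, 24.5% were positive and 25.6% negative in Apo, and 22.7% and 20.2% in IR64. NRAMP6 (LOC4352640) was positive on every array, at 0.514, 0.54 and 0.494 in Apo and 0.63, 0.538 and 0.592 in IR64. The means of 0.516 ± 0.0232 and 0.586 ± 0.0462 had adjusted p = 4.89e-05 and 4.45e-05, and the genotypes overlapped. NRAMP3, known in rice for directing manganese at stem nodes, was negative on all arrays, with means of -0.414 ± 0.111 and -0.325 ± 0.108, both past the threshold. NRAMP1 and NRAMP5, the latter the main manganese and cadmium importer of rice roots, passed in neither genotype. NRAMP5 was at -0.104 ± 0.0703 in IR64, which passed under the replicate block (adjusted p = 0.0279) and without IR64 replicate 1 (0.0377). NRAMP2 was at 0.0669 ± 0.0508 in Apo, not past the threshold, and at 0.103 ± 0.015 in IR64 (0.0364), a call lost without any 1 array other than Apo replicate 1 (0.0502 to 0.147).

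NRAMP4 (LOC4324486), a member of this metal importer family, was read by 4 probes that did not give 1 answer. The probe on spot 11151, here probe 2, stood at 0.197, 0.279 and 0.293 in Apo, against 0.618, 0.785 and 0.813 in IR64. Each IR64 value was more than any Apo value, where 34.5% of all tested probes had no overlap in either direction. The probe on spot 3332 had means of 0.321 ± 0.082 (Apo) and 0.309 ± 0.158 (IR64), and the probe on spot 13928 at 0.156 ± 0.0344 and 0.149 ± 0.0435, with overlap between genotypes for both. These 3 probes were positive past the threshold in both genotypes, although probe 3 on spot 13928 was not without Apo replicate 3 in Apo (0.0554) or IR64 replicate 2 in IR64 (0.0574). The probe on spot 17402 was at 0.0301 ± 0.0511 in Apo, not past the threshold, and negative in IR64 at -0.121 ± 0.0558 (adjusted p = 0.0332), a call lost when Apo replicate 3 or either of IR64 replicates 2 and 3 was left out (0.0651 to 0.164). Averaged over the 4 probes before the fit, NRAMP4 was at 0.191 in Apo and 0.269 in IR64, with a difference of -0.0778 that did not pass (adjusted p = 0.271). The parts of the transcript that the probes read are not given in the tables used here.

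**Figure D3:**
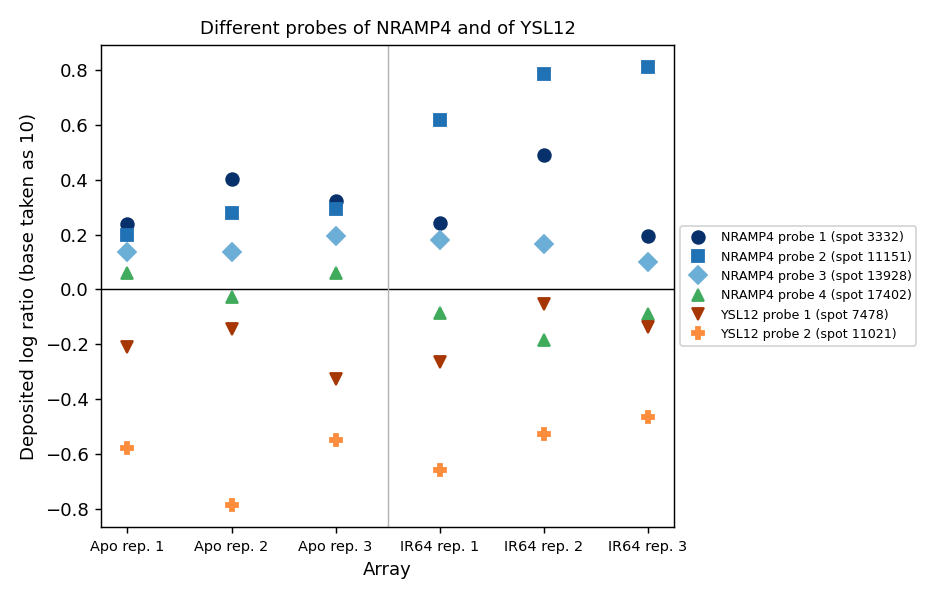
Log ratio (y axis, base taken as 10) of the 4 NRAMP4 probes and the 2 YSL12 probes on each of the 6 arrays (x axis). The NRAMP4 probe on spot 11151 lies between 0.618 and 0.813 on the IR64 arrays, while that on spot 17402 lies between -0.185 and -0.0863 there, and the YSL12 probe on spot 11021 lies below that on spot 7478 on every array.

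The comparison of the genotypes asked which members had another ratio in the tolerant than in the susceptible line, and any dye bias shared by the arrays drops out of it. NAS1, OsZIP4 and 1 NRAMP4 probe passed the limma test of the difference. NAS1 had a difference, Apo minus IR64, of 0.38 with a 95% interval from 0.257 to 0.504 (adjusted p = 0.0307). For OsZIP4 it was 0.30 with an interval from 0.18 to 0.419 (adjusted p = 0.0434, but 0.0515 under the replicate block and 0.0561 with all spots tested). For NRAMP4 probe 2 it was -0.482 with an interval from -0.637 to -0.327 (adjusted p = 0.0307). The 3 of 32 probes, 2 positive and 1 negative, stand beside 2.02% of all tested probes, 0.773% positive and 1.25% negative. Because the members were chosen with earlier results of these data known, these shares only describe them. The OsZIP4 difference shrank to 0.215 when arrays were scaled to a common spread and to 0.144 with quantile normalization, with adjusted p = 0.128 and 0.22, and the NRAMP4 probe 2 difference of -0.571 with quantile normalization had 0.0548.

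Without IR64 replicate 1, 10 members passed instead of 3, but so did 33.6% of all probes. NAS1 then differed by 0.414, NRAMP4 probe 2 by -0.542 and OsZIP4 by 0.29, with adjusted p = 0.00504, 0.00329 and 0.0142. The 7 added were all short of the threshold with all arrays. OsZIP5 went from -0.406 (adjusted p = 0.108) to -0.528 (0.0119), YSL13 from -0.35 (0.0653) to -0.363 (0.0315) and YSL14 from -0.202 (0.0692) to -0.226 (0.0116). NAS2 went from 0.37 (0.124) to 0.229 (0.0229) and IRT1 from -0.238 (0.103) to -0.177 (0.0485), both nearer to 0. OsZIP6 went from 0.155 (0.172) to 0.215 (0.0131) and YSL6 from 0.15 (0.0988) to 0.173 (0.0154). Without any 1 of the other 5 arrays 0 members passed the limma test after adjustment (9 to 11 had an unadjusted p under 0.05, against 13 with all arrays). Of all 17727 probes 0 to 12 passed there, so the 0 says nothing particular to these genes. The adjusted p of NAS1 then lay between 0.11 and 0.164. With all arrays, the largest difference of any member was that of NAS3, -0.585 with an interval from -1.02 to -0.151. It did not pass (adjusted p = 0.114), but did under the replicate block (0.0354), and was -0.476 (0.127) without IR64 replicate 1.

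Arrays of the genotypes did not overlap for 12 of the 32 probes, or 37.5%, beside 34.5% of all tested probes. Apo lay above IR64 for NAS1, NAS2, YSL6, OsZIP4, OsZIP6, OsZIP7 and 1 NRAMP4 probe, and below it for YSL13, YSL14, IRT1, OsZIP5 and another NRAMP4 probe. For YSL15 and NRAMP4 probe 3 the 95% intervals of the difference ran from -0.108 to 0.108 and from -0.0995 to 0.114, so larger differences lay outside them. For YSL18 the interval ran from -0.457 to 0.389 and says little. These intervals are from all 6 arrays.

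**Figure D4:**
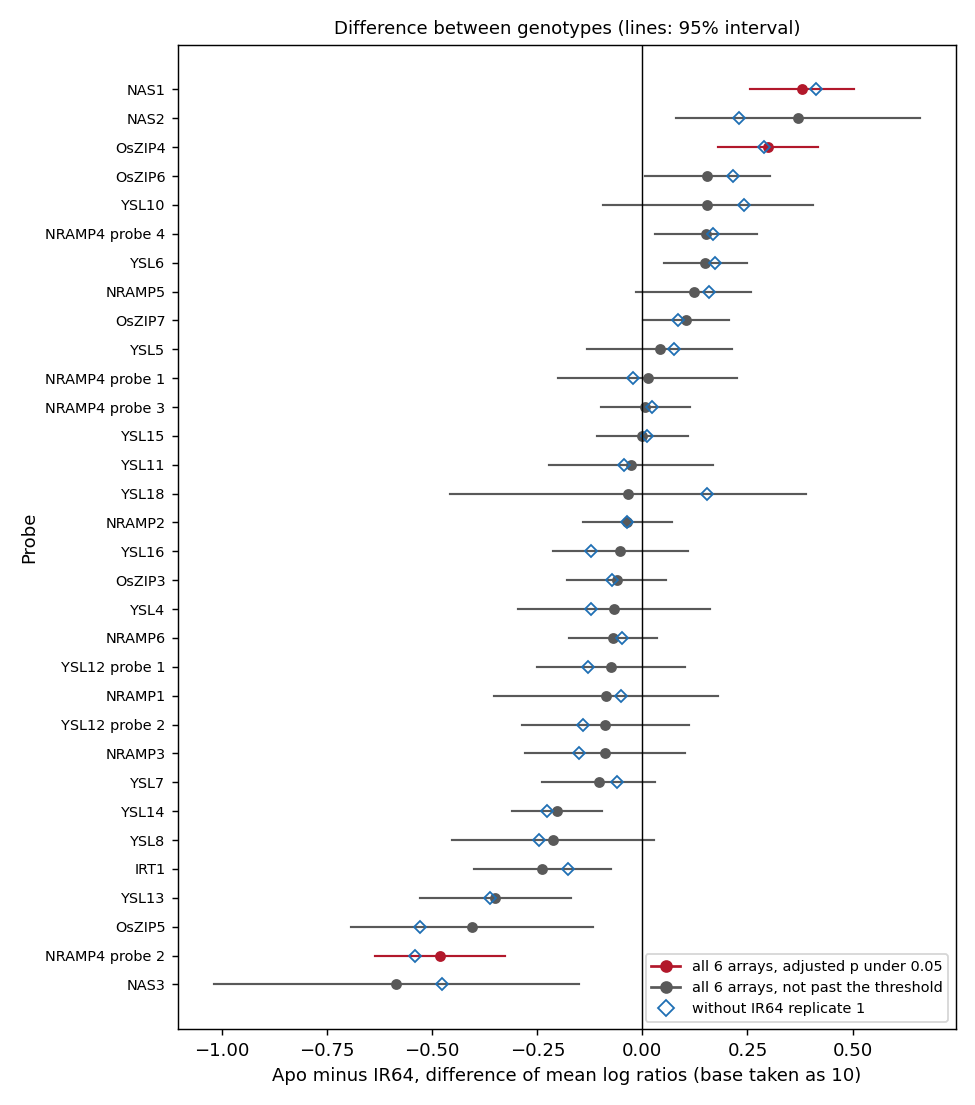
Difference of mean log ratios, Apo minus IR64 (x axis, base taken as 10), for the 32 probes (y axis), with 95% intervals from limma on all 6 arrays and, as open diamonds, the value without IR64 replicate 1. Red marks NAS1, OsZIP4 and NRAMP4 probe 2, which passed the adjusted threshold, and the diamond of OsZIP5 lies farther from 0 than its full value, at -0.528 against -0.406.

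Likeness of pattern was measured as the root mean square distance between log ratios over the 6 arrays, among probes of other genes with a gene name. The distance was not scaled, so probes with ratios near 0 lie close together whatever their pattern. Nearest to NAS1 were INO1 at 0.0585, OsWNK7 at 0.0796 and OsWRKY24 at 0.0836. Their means were positive in Apo and negative in IR64, which follows from picking them by nearness to NAS1. Nearest to OsZIP4 were HOX7 at 0.116, IAA9 at 0.121 and PCF7 at 0.128. The NRAMP4 probes had different neighbours, with CCC1 (0.0684), OsC3H27 (0.0691) and AS2 (0.0727) for probe 1 and NBS1 (0.0956), CPX (0.11) and CSLH1 (0.115) for probe 2. Nearest to probe 3 were GPA2 (0.0311), EGY1 (0.0315) and PBF1 (0.0398). Nearest to probe 4 were NRAMP5 (0.0282), AldC-alpha (0.0331) and BZIP02 (0.0409).

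Other genes of metal handling were taken from name lists. Their counts stand beside 24.5% of all tested probes positive and 25.6% negative in Apo, and 22.7% and 20.2% in IR64. Of 6 probes for iron uptake by phytosiderophores and its regulators, 1 was positive and 1 negative in Apo and 2 were positive in IR64, with medians of 0.0487 and 0.0178. SAM1, an S-adenosylmethionine synthase and so a supplier of the NAS substrate, was at -0.14 ± 0.0173 in Apo and 0.144 ± 0.0395 in IR64. All its Apo values were negative and all its IR64 values positive, the reverse of NAS1, and its difference of -0.284 passed (adjusted p = 0.0353, and 0.00742 at -0.292 without IR64 replicate 1). That call was lost without any 1 of the other 5 arrays (0.111 to 0.174), the Apo call without Apo replicate 3 (0.0603) and the IR64 call without IR64 replicate 3 (0.0581). SAMS2 was positive in both, at 0.259 ± 0.0721 and 0.357 ± 0.0608. The iron regulators IDEF1 and IRO3 (the latter also listed as OsIRO2) passed in neither genotype with all arrays. Without IR64 replicate 1, IRO3 was positive in Apo (0.132, adjusted p = 0.00369) and negative in IR64 (-0.106, 0.0211). Its difference was then 0.238 (0.00808), against 0.154 (0.24) with all arrays. In that fit 33.6% of all tested probes passed the test of the difference. The names tom1 and tom2 also matched the list and passed in neither with all arrays. In Apo, tom2 was negative under the replicate block (adjusted p = 0.0364) and without IR64 replicate 1 (0.00963). In IR64, tom1 was negative without that array (0.0454). The tom2 difference of -0.0897 (0.318) was -0.139 (0.0333) without it. Whether tom1 and tom2 are the phytosiderophore exporters of that name is not stated in the sources used here.

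VIT1, a vacuolar iron and zinc transporter of rice leaves, was negative in both genotypes, at -0.48 ± 0.0202 and -0.383 ± 0.0506, and VIT2 passed in neither. Of 14 probes for other metal transporters, 4 were positive and 1 negative in Apo and 4 were positive and 2 negative in IR64. Of all tested probes, 24.5% were positive and 25.6% negative in Apo, and 22.7% and 20.2% in IR64. Under the replicate block OsHMA2 (0.155, adjusted p = 0.0263) and a probe of OsHMA5 (-0.118, 0.025) passed in Apo too. OsMTP7, of the cation diffusion family, was at 0.98 ± 0.15 and 0.68 ± 0.0241 in Apo and 0.689 ± 0.20 and 0.31 ± 0.115 in IR64 on 2 probes, while the remaining probe passed in neither. The difference of the second of them (spot 21622) passed at 0.37 (adjusted p = 0.0488), at 0.408 (0.011) without IR64 replicate 1, and not without any 1 of the other arrays (0.153 to 0.17). That of the first (spot 8249), at 0.291, did not (0.178), except under the replicate block (0.0435) or without IR64 replicate 1 (0.406, 0.0272). COPT7, of the copper transporter family, was at 0.34 ± 0.0727 and 0.181 ± 0.0173, and OsHMA4, a copper pump of the vacuole in rice, at 0.335 ± 0.0224 and 0.126 ± 0.0828. The OsHMA4 call in IR64 was lost without any 1 array other than IR64 replicate 3 (0.0554 to 0.171). On the negative side, OsMTP3 was at -0.394 ± 0.0111 and -0.334 ± 0.0735 in both genotypes, and OsMTP5 at -0.278 ± 0.0329 in IR64. Without IR64 replicate 1 the differences of OsHMA4 (0.23, adjusted p = 0.0296) and OsMTP5 (0.244, 0.0493) passed. So did that of OsHMA5 on spot 7676 (-0.233, 0.024), as did 33.6% of all tested probes. With all arrays these 3 did not pass (0.0867, 0.0796 and 0.124).

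Markers of leaf senescence, veins and roots were measured beside these results, as ratios without levels. Their counts stand beside 24.5% of all tested probes positive and 25.6% negative in Apo, and 22.7% and 20.2% in IR64. The senescence genes SGR, OsNYC1 and OsICL were all positive in Apo, at 0.402 ± 0.0158, 0.33 ± 0.0438 and 1.63 ± 0.0996. In IR64 OsICL was positive at 1.02 ± 0.297, whereas SGR (-0.0887 ± 0.152) and OsNYC1 (-0.104 ± 0.161) did not pass, except without IR64 replicate 1 (-0.175, adjusted p = 0.00509, and -0.196, 0.00542). The SGR difference passed at 0.49 (adjusted p = 0.04), and at 0.577 (0.00245) without IR64 replicate 1. It was lost without any 1 of the other 5 arrays (0.142 to 0.178). The OsNYC1 difference of 0.433 passed under the replicate block (0.0434) or without IR64 replicate 1 (0.526, 0.00296). That of OsICL, 0.616 (adjusted p = 0.078), shrank to 0.446 without IR64 replicate 1 and passed there (0.0107). Without that array 33.6% of all tested probes passed the test of the difference. Of 5 probes matched by vascular and secondary wall names, 2 were positive and 1 negative in Apo and 2 were positive in IR64, and 3 of these 5 calls were lost without some array (BC1 and OsCesA7 in Apo, OsBC1 in IR64, adjusted p from 0.0513 to 0.183). One of these, matched as OsBC1, is also listed as a bHLH factor and may not be the wall gene. OsCesA4 was at 0.095 ± 0.29 in Apo and 0.782 ± 0.138 in IR64. Its difference of -0.687 did not pass (adjusted p = 0.0682), but did without IR64 replicate 1 (-0.754, 0.0292). Without Apo replicate 1 its Apo mean was positive past the threshold (0.262, adjusted p = 0.0358), and the difference was -0.52 (0.119). BC1 was at -0.529 ± 0.0905 and -0.112 ± 0.362. The BC1 difference of -0.416 (0.182) was -0.624 (0.00512) without IR64 replicate 1. The differences of OsCesA7, OsBC1 and SUT1 passed neither with all arrays nor without that array. Of 3 root probes, 1 was negative in each genotype, the ammonium transporter OsAMT1;2 at -1.02 ± 0.0331 and -0.563 ± 0.228. The OsAMT1;2 difference of -0.462 (adjusted p = 0.0787) was -0.593 (0.00258) without IR64 replicate 1. The part of these markers in the ratios of the members was not tested.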

How the data were processed

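The log ratios of 6 Agilent rice arrays with 2 channels each entered the tests unchanged. Per the submitters' processing notes they were made with Agilent Feature Extraction 8.1. The deposited values are taken as log10, which the authors' notes do not state. Their sign, centring, dye normalization and background correction are not stated there. Channel intensities were not used, and precision is limited by the number of arrays.

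Of 22575 spots, 17839 were annotated to 1 gene, 21 to several (17860 in all) and 4715 to no gene. All 17839 identifiers matched the gene table of assembly ASM3414082v1 (Oryza sativa Japonica Group), which was used for names and neighbours. Annotated spots at exactly 0 on all 6 arrays (133) were left out, and 17727 were tested. All 32 member probes passed this filter. Of their 192 values 8 were exactly 0, on 3 probes. Probes of the same gene were not averaged.

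Tests used limma 3.58.1 (R 4.3.3, lmFit, eBayes), with a mean for each genotype from its own 3 arrays and a spread shared by the 6 arrays. A genotype's p-value therefore does not rest on its own SD alone. It can change when an array of the other genotype is left out. The contrasts were Apo and IR64 against 0 and Apo minus IR64, with Benjamini-Hochberg adjustment over all tested probes at 0.05. The fit was run on simulated data with independent normal errors. Those data held neither the likeness of IR64 replicate 1 to Apo nor the correlation of same-numbered arrays. The run therefore does not cover how these affect the p-values. Standard deviations are over 3 arrays. Python 3.11.15, pandas 2.3.3 and matplotlib 3.10.9 made tables and figures. All members were named. The nearest 3 named genes by root mean square distance were added for NAS1, OsZIP4 and NRAMP4, with the largest called members of the other lists. Members and lists were chosen with earlier results of these data known.

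The same-numbered Apo and IR64 arrays deviated together from their genotype means, with correlations across probes of 0.322, 0.261 and 0.34. For arrays with different numbers the correlations were -0.26 to 0.0166. The replicate numbers were taken as pairs by this check of the data. The main fit has no block, so its p-values take no account of this pairing. The block is an alternative, given beside each member's result whose call it changed. Other alternatives were centring, scaling and quantile normalization of arrays, keeping spots at 0, all spots, probe means per gene, each genotype alone, a threshold of 0.01, and leaving out each array.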

Additional observations from a re-analysis of the deposited data

Results flagged for a closer look

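NAS1 stood out because its ratios differed between genotypes by the test of the difference itself, at 0.38 (limma adjusted p = 0.0307), with 3 of 3 Apo arrays positive and 3 of 3 IR64 arrays negative. NRAMP4 probe 2 did so at -0.482 (0.0307) with all arrays positive, and the other NRAMP4 probes did not pass. OsZIP4 did so at 0.30 (0.0434) with all arrays positive. OsZIP5 was flagged because every Apo array was negative and every IR64 array positive, although its difference of -0.406 did not pass the test (adjusted p = 0.108). Its values of -0.0333 and -0.0416 in Apo and 0.0526 in IR64 lay near 0. How many of all tested probes split by sign between the genotypes, as OsZIP5 and NAS1 did, was not counted. Single outlying values per probe were not looked for, since each genotype has 3 arrays.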

How the results depend on the processing

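The number of member probes past the threshold was 19 in Apo and 21 in IR64 and lay between 13 and 19, and between 17 and 21, when 1 array was left out. No other alternative moved either by over 1.5 times. For the difference the number was 3, between 0 and 10 without 1 array (10 only without IR64 replicate 1), 1 with quantile normalization and 0 at a threshold of 0.01. With the replicate block it was also 3, with NAS3 (adjusted p = 0.0354) in place of OsZIP4 (0.0515), and 951 instead of 358 of all probes passed. Of the members' calls the block changed only those named in the report. For the genes of the other lists the block and the leaving out of arrays were added after the data were seen. There the block also brought OsCesA7 in IR64 (0.14, adjusted p = 0.0454) and the OsCesA4 difference (-0.687, 0.0414) past the threshold.

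Over 96 values and 14 alternatives, 81 results lost the threshold, 22 gained it and 32 changed sign. None of these was past the threshold with all arrays or under the alternative that turned it. Scaling turned the differences of NRAMP4 probe 1 (-0.0127), NRAMP4 probe 3 (-0.00235) and YSL16 (0.0246). Quantile normalization turned YSL18 in IR64 (-0.012) and the differences of NRAMP4 probe 1 (-0.0266), YSL12 probe 2 (0.0368), YSL16 (0.0886), YSL18 (0.00321) and OsZIP3 (0.015). The cause was not tested.

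Leaving out 1 array turned the sign, over the ranges given, of the Apo values of NRAMP5 (-0.00835 to 0.0546), NRAMP1 (-0.204 to 0.00605), YSL5 (-0.0844 to 0.0321) and YSL18 (-0.0643 to 0.0544), of the IR64 values of YSL10 (-0.0151 to 0.186), YSL18 (-0.16 to 0.201), OsZIP6 (-0.021 to 0.0743) and NRAMP1 (-0.058 to 0.0247), and of the differences of YSL5 (-0.00979 to 0.107), YSL15 (-0.0232 to 0.022), NRAMP1 (-0.181 to 0.0297), NRAMP4 probe 1 (-0.0441 to 0.103), YSL11 (-0.0778 to 0.0596), NRAMP4 probe 3 (-0.0175 to 0.0229), YSL18 (-0.207 to 0.153) and YSL4 (-0.121 to 0.0373).

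Other background corrections, a filter on dim probes and the slide as a block were not run, since they need intensities or slide numbers. With 3 arrays per genotype and no dye swap, dye bias cannot be separated from any ratio tested against 0. Stressed leaves were taken 5 or 6 days after day 33 and control leaves on day 37. Any effect of a different harvest day cannot be separated from these ratios either.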
